A study of Mus musculus with 6 samples.

Results

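The genes described here are surface receptors, an endocytic adaptor, proteoglycans and a secreted lipoprotein gene of extraembryonic endoderm, measured by sequencing of mRNA from mouse embryonic stem (ES) cells with 1 working copy of Tex19.1 or none. Of 10 gene symbols on the list, 9 were found among the 10128 genes of the authors' deposited table: Cubn, Srgn, Pdgfra, Dysf, Pth1r, Dab2, Lrp2, Apoe and Gpc3. Amn, the membrane partner of cubilin, was not analysed here. The list was chosen by gene function with the fold changes of this same comparison in view, so the values below describe the genes and are no test of them.

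Both groups were ES cells of 129/Ola background descended from E14Tg2a, a parental line that lacks a working Hprt gene, grown on gelatin in serum with leukaemia inhibitory factor and taken at passages 12 to 18. The control group was Tex19.1+/- and the other Tex19.1-/-, with 3 libraries each. The labels do not say whether the 3 libraries of a genotype came from separate clones or cultures, so the authors' p-values may measure technical spread only. How the Tex19.1 alleles were made is not given in the sources used here. Values per library were not analysed here, so depth is unknown and no standard deviation can be given.

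Extraembryonic endoderm is the epithelium that lines the yolk sac cavity and surrounds the early embryo, and single cells of this type arise spontaneously in ES cultures grown in serum. Its visceral layer feeds the embryo by endocytosis: cubilin, held at the membrane by amnionless, and megalin, the product of Lrp2, bind vitamins, lipoproteins and iron carriers, and the adaptor protein Dab2 links such receptors to clathrin. Its precursors carry the platelet-derived growth factor receptor Pdgfra, and its parietal layer responds to parathyroid hormone-related peptide through Pth1r.

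The cultures carried the transcripts of ES cells: all 12 marker genes of ES cells were measured, at a mean of 101 to 1566 CPM (reads scaled to library size), with 5 lower, 4 higher and a median log2 fold change of -0.06 (counts at an adjusted p under 0.05, which 26.5% of all genes passed as lower and 25.2% as higher). Tex19.1 itself was at -6.92 in the authors' deposited table. The sign was read from that gene, so negative values are lower in Tex19.1-/- cells and Tex19.1 is no check of the labels. An implied level was computed for each genotype from the authors' mean CPM and fold change, with both genotypes given equal weight.

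The promoter windows shown here are those of Cubn and Pdgfra, which were lower in Tex19.1-/- cells, of Lrp2, whose protein works with cubilin and whose level hardly differed, and of Gpc3, which was higher. Each runs from 250 bases before a RefSeq transcript start to 50 after it on GRCm38.p6, and is printed 5′ to 3′ on the gene's strand with every CG dinucleotide in capitals. They lie at chr2:13491827-13492126 (minus strand) for Cubn, chr5:75152001-75152300 (plus) for Pdgfra, chr2:69585980-69586279 (minus) for Lrp2 and chrX:52613925-52614224 (minus) for Gpc3.
Cubn: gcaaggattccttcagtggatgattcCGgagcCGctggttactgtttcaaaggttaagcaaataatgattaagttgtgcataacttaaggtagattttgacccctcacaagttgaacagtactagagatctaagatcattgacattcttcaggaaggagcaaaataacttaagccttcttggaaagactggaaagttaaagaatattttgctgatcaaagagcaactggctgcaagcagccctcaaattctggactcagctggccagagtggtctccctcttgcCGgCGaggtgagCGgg
Pdgfra: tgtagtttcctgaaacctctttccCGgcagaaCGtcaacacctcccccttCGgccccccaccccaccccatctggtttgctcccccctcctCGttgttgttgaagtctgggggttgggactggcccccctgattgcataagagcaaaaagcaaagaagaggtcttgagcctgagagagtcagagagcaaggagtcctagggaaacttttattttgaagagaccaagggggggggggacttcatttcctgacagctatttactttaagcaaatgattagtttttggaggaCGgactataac
Lrp2: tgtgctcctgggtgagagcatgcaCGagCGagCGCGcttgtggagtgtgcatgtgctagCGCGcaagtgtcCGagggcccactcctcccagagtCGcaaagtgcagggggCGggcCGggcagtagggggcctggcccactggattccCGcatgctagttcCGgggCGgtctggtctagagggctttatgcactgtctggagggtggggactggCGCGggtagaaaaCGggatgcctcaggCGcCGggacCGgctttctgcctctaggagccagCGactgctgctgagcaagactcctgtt
Gpc3: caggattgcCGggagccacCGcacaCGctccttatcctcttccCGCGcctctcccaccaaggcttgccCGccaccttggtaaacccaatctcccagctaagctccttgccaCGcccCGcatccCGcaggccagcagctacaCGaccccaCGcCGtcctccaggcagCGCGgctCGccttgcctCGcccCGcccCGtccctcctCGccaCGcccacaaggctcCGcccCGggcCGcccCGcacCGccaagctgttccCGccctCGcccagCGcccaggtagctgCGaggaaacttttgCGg

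The Cubn and Pdgfra windows hold 5 CG dinucleotides each, the Lrp2 window 20 and the Gpc3 window 30. Set against their C and G content, the observed over expected ratio of CG was 0.34 for Cubn, 0.26 for Pdgfra, 0.65 for Lrp2 and 0.92 for Gpc3. The median over all 32851 RefSeq promoter windows of this length was 0.38. All 9 genes matched the promoter table, with 16 windows because Dab2, Srgn and Dysf have 2 starts and Pth1r and Apoe have 3. The 11 windows of the 6 genes that were lower ranged from 0.19 to 0.75, with a median of 0.42. Low CG content was thus not shared by all of their starts, and their median was not below that of all windows. A window was found for 75.4% of the genes in the expression table, and these ratios were not set against the measured genes.

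GATA factors drive endoderm genes, so the windows were searched on both strands for the letters AGATAA and TGATAA. Either motif was present in 1 of the 16 windows (6.25%) and in 18.6% of all windows. The window that holds them is the upstream start of Dab2 at chr15:6299539-6299838 (plus strand), printed with its matches in capitals. TGATAA begins at base 72 of the window and the reverse complement of AGATAA at base 265, with no overlap.
Dab2, upstream start: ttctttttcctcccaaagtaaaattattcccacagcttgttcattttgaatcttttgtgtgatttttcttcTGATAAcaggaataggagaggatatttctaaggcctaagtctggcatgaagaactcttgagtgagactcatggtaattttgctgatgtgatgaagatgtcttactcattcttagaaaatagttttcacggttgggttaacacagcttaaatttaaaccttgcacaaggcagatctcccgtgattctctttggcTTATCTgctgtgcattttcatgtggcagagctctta

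The second start of Dab2 holds neither motif. The GC box GGGCGG was found in 6 of the 16 windows (37.5%) against 35.7% of all windows, and TATAAA in 2 of them (12.5%) against 13.6%. Searched on both strands, GGGCGG was present in every window of Dysf, Lrp2 and Gpc3 and in 2 of the 3 windows of Pth1r, while TATAAA was present in 1 window of Srgn and 1 of Apoe. These are matches of letters in 300 bases and say nothing of binding.

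**Figure D1:**
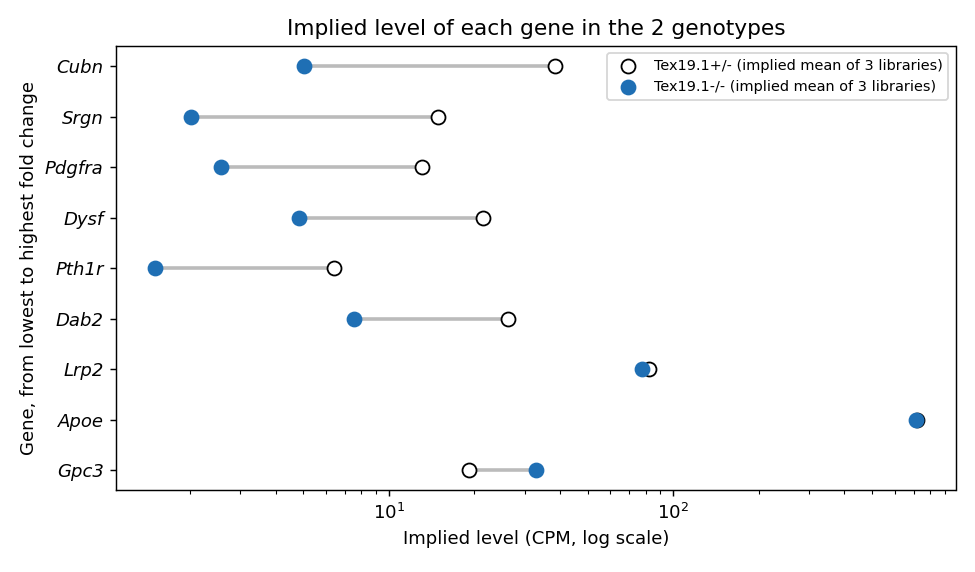
Implied level of each gene in Tex19.1+/- (open circles) and Tex19.1-/- cells (filled circles), in CPM on a log axis, with genes ordered by fold change. The filled circle lies far left of the open one for Cubn, Srgn, Pdgfra, Dysf, Pth1r and Dab2, close to it for Lrp2 and Apoe, and right of it for Gpc3; no spread between libraries is available.

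The 9 genes fell into 3 kinds. Cubn, Srgn, Pdgfra, Dysf, Pth1r and Dab2 were 3.49-fold to 7.62-fold lower in Tex19.1-/- cells, Lrp2 and Apoe lay close to the heterozygous level, and Gpc3 was higher. By the authors' deposited table, with 0.05 as the limit on the adjusted p, 6 of the 9 genes were lower and 1 was higher. Of all 10128 genes 51.7% passed that threshold, 26.5% lower and 25.2% higher, so passing it says little by itself. A fall of at least 2-fold was found for 1.10% of all genes and for the same 6 of these 9. Because the genes were picked with these fold changes known, nothing is read from those counts. In RNA from whole cultures, fewer cells of a type and less RNA per cell cannot be told apart.

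The endocytic receptor genes parted from one another. Cubn encodes cubilin, a large peripheral receptor for intrinsic factor with vitamin B12 and for many other ligands, and lies on chromosome 2 from 13276338 to 13491813 (GRCm38, minus strand). Its implied level was 38.3 CPM in Tex19.1+/- cells and 5.02 CPM in Tex19.1-/- cells. That leaves 13.1% of the heterozygous level. The authors' deposited table gives -2.93 as its log2 fold change and lists its p-value as 0. In the order of fold changes over the table Cubn came second from the lowest, after Tex19.1, and it was the lowest among the genes nearest to it in mean expression.

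Lrp2 encodes megalin, a giant endocytic receptor that helps to take up cubilin with its cargo, and lies on the same chromosome from 69424340 to 69586065 (minus strand). Its implied level was 82.3 CPM in Tex19.1+/- and 77.7 CPM in Tex19.1-/- cells, and the authors' deposited table puts its log2 fold change at -0.08. The standard error that the authors' p-value implies under a normal approximation was 0.05 on the log2 scale. This implied error puts the Tex19.1-/- level between 88.8% and 100.4% of the heterozygous level (95% interval). That interval reaches from a modest fall to no change, and a loss like that of Cubn lies far outside it. If the authors' p-values measure technical spread only, this interval and those given below are too narrow.

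Dab2, which encodes a clathrin adaptor that binds the tails of such receptors and is also a well-known marker of primitive endoderm, lies on chromosome 15 from 6299788 to 6440712 (plus strand). Its implied level was 26.2 CPM in Tex19.1+/- and 7.52 CPM in Tex19.1-/- cells. Its value in the authors' deposited table was -1.80 on the log2 scale (implied standard error 0.06), the smallest fall among the 6 lower genes. It leaves 28.7% of the heterozygous level. Of the reads at Dab2, those from its upstream and its downstream start cannot be told apart in a table of 1 value per gene.

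Per kilobase of annotated exon, the balance of the receptor genes differed between the genotypes. Lrp2 was implied at 4.97 CPM per kb in Tex19.1+/- cells and 4.69 in Tex19.1-/- cells. Cubn was implied at 3.40 CPM per kb and 0.45, respectively. Lrp2 thus exceeded Cubn 1.46-fold per kb in the heterozygous cells and 10.5-fold in the knockout cells. The matching ratio of Lrp2 to Dab2 was 0.99 and 3.26. Exon length is the same in both genotypes, so the shifts in these ratios restate the fold changes above and are no further result.

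**Figure D2:**
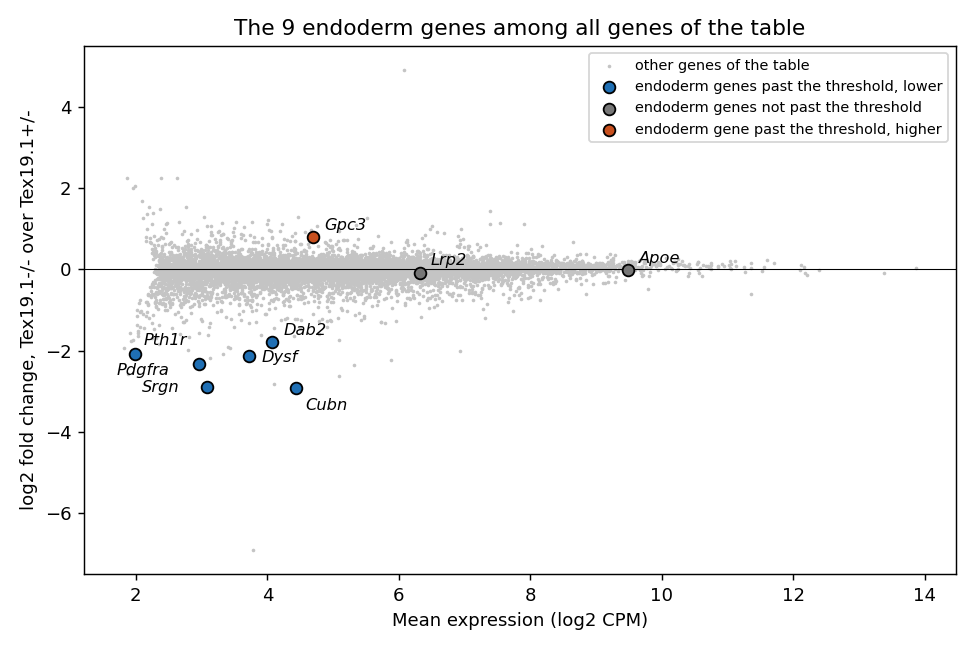
Log2 fold change (Tex19.1-/- over Tex19.1+/-) against mean expression in log2 CPM for the 10128 genes of the authors' deposited table, with the 9 endoderm genes named. The 6 lower genes lie between -1.80 and -2.93, below nearly all genes of like expression, whereas Lrp2 and Apoe lie within the main band. Gpc3 lies above nearly all genes of like expression.

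Of the growth factor and hormone receptors, both measured genes were lower. Pdgfra encodes the receptor tyrosine kinase whose reporter marks primitive endoderm, and lies on chromosome 5 from 75152292 to 75198215 (plus strand). Its implied level was 13.0 CPM in Tex19.1+/- and 2.57 CPM in Tex19.1-/- cells, and its value in the authors' deposited table was -2.34 on the log2 scale (implied standard error 0.09). Per kilobase it had the lowest implied level of the 9 genes in both genotypes, 1.49 and 0.29 CPM per kb.

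Pth1r encodes the receptor for parathyroid hormone and its related peptide, and lies on chromosome 9 from 110722085 to 110747145 (minus strand). The implied level was 6.39 CPM in Tex19.1+/- and 1.50 CPM in Tex19.1-/- cells, and the authors' deposited table gives -2.09 on the log2 scale (implied standard error 0.10). Its mean of 3.94 CPM is near the lowest of the table. In the authors' deposited table the 9 genes that average below 4 CPM differ by 1.56 or more on the log2 scale in 1 direction or the other. The authors' filter on low counts was not given, but Pth1r may be listed only through its level in the heterozygous cells. Its presence among the genes that differ is then no finding. Srgn and Pdgfra have implied Tex19.1-/- levels of 2.01 and 2.57 CPM, below the lowest mean of any listed gene, 3.52 CPM. They too may be listed only through the heterozygous cells, and the same limit then holds for them.

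The proteoglycan genes went in opposite directions. Srgn encodes serglycin, a small secretory proteoglycan that packs granules in blood cells and is also made by parietal endoderm, and lies on chromosome 10 from 62493833 to 62527451 (minus strand). It was implied at 14.9 CPM in Tex19.1+/- and 2.01 CPM in Tex19.1-/- cells, which leaves 13.5% (interval 12.0% to 15.3%). On the log2 scale this was -2.89 in the authors' deposited table (implied standard error 0.09), the third lowest of all genes after Tex19.1 and Cubn. Srgn had the second highest implied level per kilobase of the 9 genes in heterozygous cells, 8.48 CPM per kb, and the fifth highest in knockout cells, 1.15 CPM per kb.

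Gpc3 encodes glypican-3, a heparan sulphate proteoglycan tethered to the membrane by a lipid anchor, and lies on the X chromosome from 52272426 to 52613950 (minus strand). Its implied level was 19.09 CPM in Tex19.1+/- and 32.9 CPM in Tex19.1-/- cells, or 172% of the heterozygous level (interval 160% to 186%). On the log2 scale this was 0.79 in the authors' deposited table (implied standard error 0.05). Among the genes nearest in mean expression, 297 had a lower fold change and 3 a higher one.

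The remaining genes serve the membrane and lipid transport. Dysf encodes dysferlin, a calcium-binding membrane protein known from the repair of muscle fibres, and lies on chromosome 6 from 84008590 to 84211060 (plus strand). It was implied at 21.4 CPM in Tex19.1+/- and 4.85 CPM in Tex19.1-/- cells, which the authors' deposited table gives as -2.15 on the log2 scale (implied standard error 0.07). Apoe encodes apolipoprotein E, a ligand of lipoprotein receptors, and lies on chromosome 7 from 19696109 to 19699188 (minus strand). It was implied at 722 CPM in Tex19.1+/- and 711 CPM in Tex19.1-/- cells. The authors' deposited table gives its log2 fold change as -0.02. The implied interval for its Tex19.1-/- level was 92.1% to 105% of the heterozygous level. Per kilobase Apoe stood at 393 and 387 CPM per kb, above all 8 other genes. With no spread between libraries, the order of levels among genes was not tested.

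Each of the 6 lower genes had a lower fold change than all of its nearest measured genes on the chromosome. The 6 were picked with their fold changes known, so this is no test. For each gene the 3 nearest measured genes on either side were taken, with positions from GENCODE M21 on GRCm38. The 36 neighbours of the 6 lower genes had a median log2 fold change of 0.02, with 11 lower and 10 higher at the same threshold. Over all genes 26.5% were lower and 25.2% higher. Cubn lies between Rsu1, an adhesion protein gene at -0.04, and the tRNA methyltransferase gene Trdmt1 at 0.35 in the authors' deposited table. Rsu1, its nearest measured gene, is 4.92 kb away. Of the 6 neighbours of Cubn 2 were lower, Itga8 at -0.77 and Vim at -0.33, and 1 was higher, Trdmt1. The neighbours of Srgn ranged only from -0.24 to 0.12, and those of Dysf from -0.24 to 0.07.

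Pdgfra lies 377 kb from Kit, which encodes a related receptor tyrosine kinase and was higher, at 0.45 in the authors' deposited table. These adjacent kinase genes went opposite ways, and their fold changes lay 2.79 apart on the log2 scale. Pth1r had the lowest surroundings: the protease gene Prss50 at -1.58 and Als2cl at -0.68 in the authors' deposited table lie within 133 kb of it, and 4 of its 6 neighbours were lower. Their part in the value of Pth1r was not tested. The mean of Prss50 was only 6.36 CPM, so Prss50 may be listed only through its level in Tex19.1+/- cells. Transcripts annotated on the opposite strand share 368 exon bases with Cubn, 456 with Pdgfra and 352 and 105 with Dysf. The strand setting of the counting was not given, so reads from these stretches cannot be assigned with certainty.

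Gpc3 shared its direction with its surroundings. Of its 6 measured neighbours 4 were higher and 0 lower, beside 25.2% and 26.5% of all genes, with a median of 0.24. They include the paralog Gpc4, 107 kb away, at 0.34 in the authors' deposited table, and the ubiquitin protease gene Usp26 at 1.69 there. The mean of Usp26 was only 4.25 CPM, so it may be listed only through its level in Tex19.1-/- cells. The part of the region in the value of Gpc3 was not tested. Apoe lies 3.45 kb from the apolipoprotein gene Apoc1, lower at -0.44 in the authors' deposited table, and 2.13 kb from the mitochondrial import gene Tomm40 at 0.13. Of its 6 neighbours 4 were lower and 1 was higher, with a median of -0.23.

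**Figure D3:**
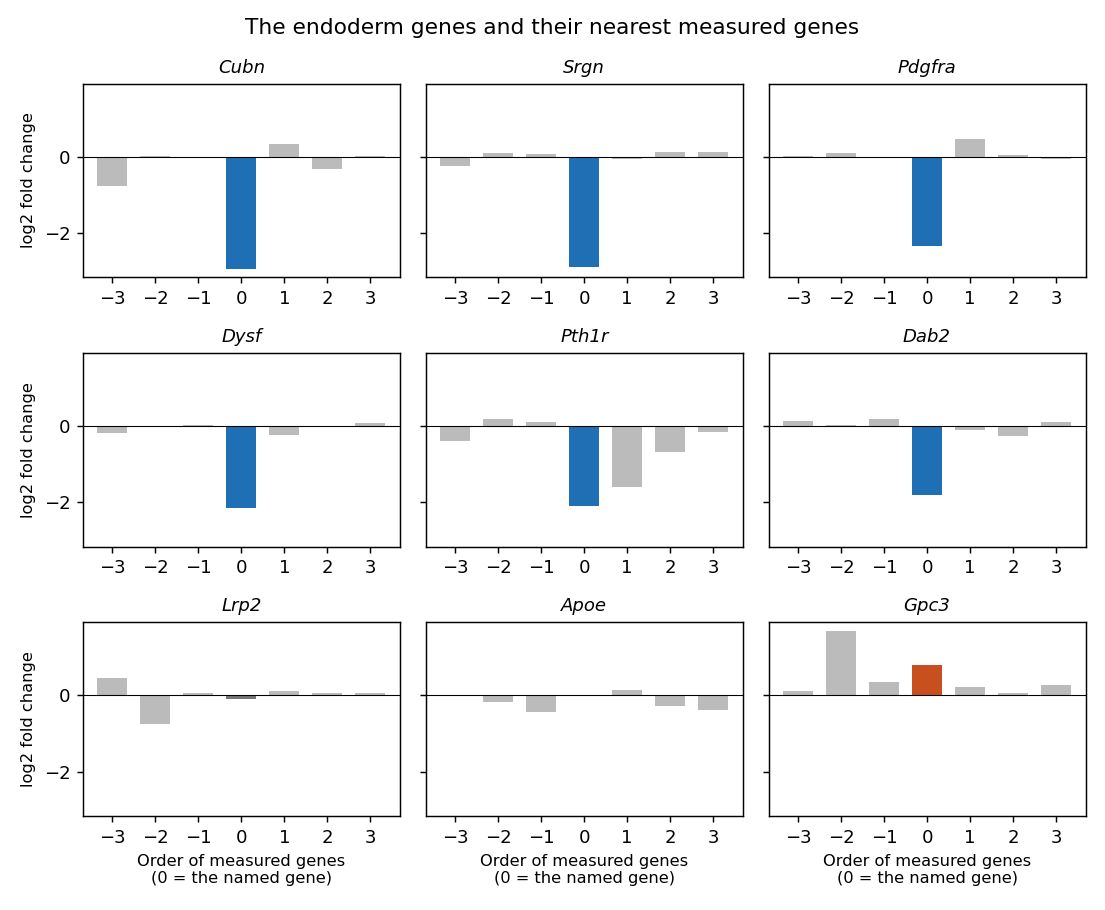
Log2 fold change (Tex19.1-/- over Tex19.1+/-) of each endoderm gene (coloured bar at 0) and of the 3 nearest measured genes on either side (grey bars), in order along the chromosome. The bars beside Cubn, Srgn, Pdgfra, Dysf and Dab2 stay between -0.77 and 0.45, Prss50 and Als2cl beside Pth1r are at -1.58 and -0.68, and the neighbours of Gpc3 are all above 0.

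Partner genes of the same roles were taken from lists drawn up by function, with earlier results of these data known. Beside each count stand the shares over all genes given above and the median log2 fold change over all genes, 0.00. Among 32 measured partners of the endocytic receptors and parts of clathrin uptake, 13 were lower, 4 were higher and 15 did not pass, with a median of -0.07. Among the smallest p-values were those of Lrp1, a broadly expressed relative of megalin, at -1.33, the dynamin gene Dnm2 at -0.34 and the sorting nexin gene Snx17 at -0.34 in the authors' deposited table. Lrp1 was the only one of the 32 lower by at least 2-fold.

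Named after their values were seen, other receptor genes of that list spread to both sides. In the authors' deposited table Lrp4 was at -0.37, Lrp5 at -0.23, Lrp6 at -0.09, Lrp8 at 0.00 and the sorting receptor gene Sorl1 at 0.22; Lrp6 and Lrp8 did not pass. The subunit genes of the AP-2 adaptor and of clathrin, with which Dab2 works, stayed between -0.19 and 0.11 there. Lrpap1, the chaperone of megalin and its relatives, was also picked out with its value known, -0.34 in the authors' deposited table.

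Of 20 measured growth factor receptors, PDGF ligands and signalling genes, 5 were lower and 6 higher, with a median of -0.03. Fgfr3, an FGF receptor gene with a mean under 4 CPM like Pth1r, was at -1.56, Fgfr2 at 0.66, Kit at 0.45 and Met, the hepatocyte growth factor receptor gene, at 0.80 in the authors' deposited table. Pdgfa, the ligand gene of Pdgfra, was picked out with its value known and stood at -0.12 there, at a mean of 51.0 CPM. Of 12 genes that act below Pth1r, 4 were lower and 2 higher, with a median of 0.01. They were led by the arrestin genes Arrb1 at 0.51 and Arrb2 at 0.26, the kinase subunit gene Prkar2a at -0.32 and the G protein gene Gna11 at -0.10 in the authors' deposited table. Pthlh, which encodes the ligand, was not analysed here.

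Among 25 proteoglycans and enzymes that build their chains, 8 were lower and 6 higher, with a median of -0.01. The chain-starting xylosyltransferase gene Xylt1 was at -0.81, the sulphatase gene Sulf1 at 0.32, the perlecan gene Hspg2 at -0.33 and Gpc4 at 0.34 in the authors' deposited table. Of 8 genes of lipid export, 3 were lower and 3 higher, with a median of -0.07. The cholesterol transporter gene Abca1 was at -0.38, Apoc1 at -0.44, the phospholipid transfer gene Pltp at -0.31 and the lipase gene Lpl at 0.36 in the authors' deposited table.

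The partners of dysferlin were mostly lower. Of 18 ferlin, annexin, calpain and other membrane repair genes 15 were lower and 3 higher, with a median of -0.46. Ptrf, which encodes the caveolar coat protein cavin-1, was at -1.30, the calpain gene Capn2 at -0.90, Ahnak, whose protein binds dysferlin, at -0.58 and Myof, the ferlin gene nearest in kind to Dysf, at -0.62 in the authors' deposited table. Only Ptrf of the 18 was lower by at least 2-fold. The 3 that were higher, named after their values were seen, were Anxa11 at 0.40, Anxa6 at 0.30 and Pdcd6 at 0.13 in the authors' deposited table.

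Other endoderm genes are given for comparison. Of 6 measured transcription factor genes 3 were lower and 2 higher, the lower ones being Gata6 at -2.32, Gata4 at -2.08 and Sox7 at -1.56 in the authors' deposited table, all by at least 2-fold. Prdm1 stood at 0.42 there. The implied Tex19.1-/- level of Gata6 was 2.45 CPM, below the lowest mean of any listed gene, 3.52 CPM. Gata6 too may be listed only through the heterozygous cells. Of 16 genes of basement membrane, collagen processing and secretion, 12 were lower, 4 of them by at least 2-fold, and 1 was higher, with a median of -0.51. Collagen IV genes Col4a1 and Col4a2 were at -2.01 and -2.23, the laminin gene Lama1 at -1.19 and the collagen chaperone gene Serpinh1 at -1.43 in the authors' deposited table. Markers of the mature visceral layer, Afp, Ttr and Apob among them, were not analysed here.

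**Figure D4:**
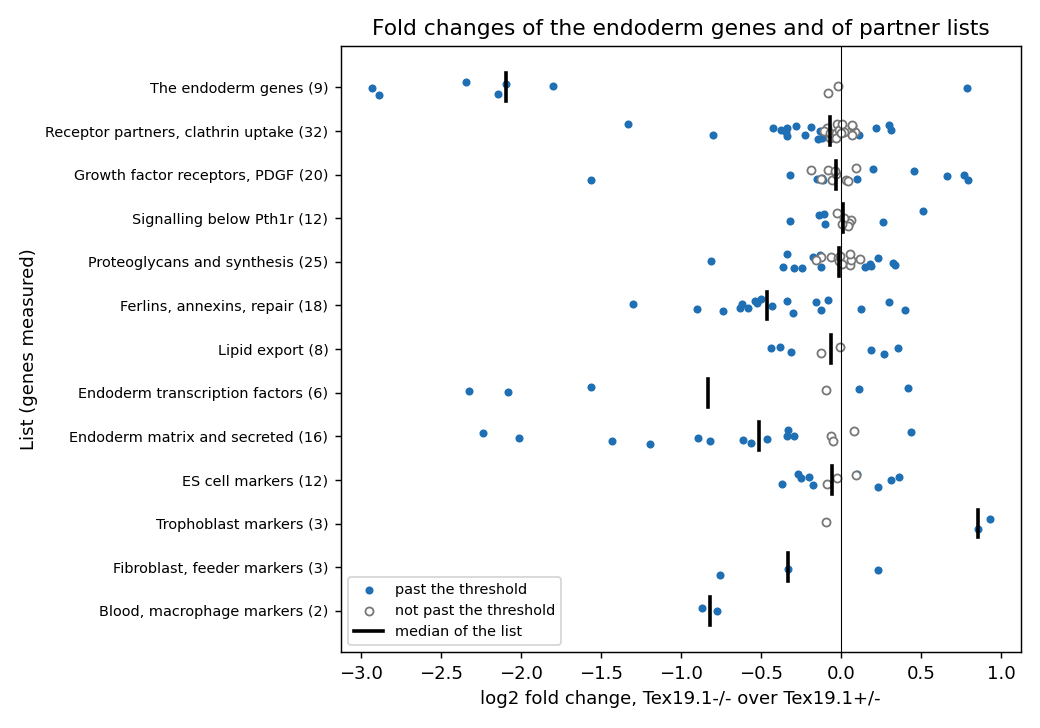
Log2 fold change (Tex19.1-/- over Tex19.1+/-) of the 9 endoderm genes and of each partner or marker list, 1 point per gene; filled points passed the authors' adjusted p of 0.05 and black bars are medians. The endoderm genes split into a group near -2 and below, a pair near 0 and Gpc3, while 5 partner lists and the ES cell markers have medians between -0.07 and 0.01. Medians farther from 0 are those of fibroblast markers at -0.33, membrane repair at -0.46, endoderm matrix at -0.51, blood markers at -0.82, endoderm transcription factors at -0.83 and trophoblast markers at 0.86, where the fibroblast, blood and trophoblast lists hold 2 or 3 measured genes each.

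Markers of other cell types that a culture could hold went both ways. Of 8 blood and macrophage markers, among whose cells Srgn is abundant, 2 were measured and both were lower: Laptm5 at -0.77 and Cd68 at -0.87 in the authors' deposited table. Their summed implied level was 152 CPM in Tex19.1+/- and 88.0 CPM in Tex19.1-/- cells, and the defining gene Ptprc was not analysed here. Of 10 trophoblast markers 3 were measured, and Cdh3 at 0.93 and Tfap2c at 0.86 were higher in the authors' deposited table, while Eomes, at -0.09, did not pass. Their sum was 41.2 and 71.4 CPM. Of 12 fibroblast and feeder markers 3 were measured, with Fbn1 at -0.76, Vim at -0.33 and Fn1 at 0.23 in the authors' deposited table and sums of 1035 and 1123 CPM. The higher sum came from Fn1, implied at 796 CPM in Tex19.1+/- and 934 CPM in Tex19.1-/- cells, while Fbn1 and Vim were lower. None of 7 mesoderm markers was analysed here. The part of these cell types in the values of the 9 genes was not tested.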

How the data were processed

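RNA from 6 libraries, 3 Tex19.1+/- and 3 Tex19.1-/-, was sequenced in pairs on a HiSeq instrument after stranded mRNA library preparation, per the labels' protocols. Reads were processed with TopHat2 2.1.0 on mm10, HTSeq 0.11.2, Trim Galore 0.4.1 and edgeR among the tools, per the submitters' processing notes. Not given in the sources used here: their annotation, strand setting, low-count filter and test design. The authors deposited, per the file headers, a log2 fold change, a mean log2 CPM, a p-value and an adjusted p-value for 10128 genes. No library's own values were analysed, so the edgeR fit considered for counts per library was not run.

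The genes and lists were chosen with earlier results of these data known. Implied levels, standard errors, intervals and ranks among 301 genes of like mean were computed in Python 3.11.15 with pandas 2.3.3 and scipy 1.17.1. Standard errors and intervals rest on a normal approximation to the authors' p-value. The formulas were run on data simulated under the same assumptions. That run checks the arithmetic, and whether the authors' values meet the assumptions was not tested. Positions and exon lengths are from the basic set of GENCODE M21 (GRCm38): 9573 symbols matched directly, 135 through older symbols, and 420 have no position. Named beside the 9 genes are up to 4 genes per list with the smallest p-value and the 3 nearest measured genes on each side; others are marked as named after their values were seen. A gene that this rule would name is not reported here. The settings varied were a limit of 0.01 on the adjusted p, Bonferroni adjustment, a mean of at least 16 CPM, a change of at least 2-fold, and centring on genes of like mean.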

Additional observations from a re-analysis of the deposited data

How the results depend on the processing

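Under an adjusted p of 0.01 or Bonferroni adjustment, 6 of the 9 genes were called lower and 1 higher. With a mean of at least 16 CPM required, 2 were called lower, because Srgn, Pdgfra, Dysf and Pth1r have lower means. With a change of at least 2-fold required, 6 were lower and 0 higher, since Gpc3 is below that size. Of all 10128 genes, 2685 were lower and 2551 higher at the main threshold. An adjusted p of 0.01 left 2212 lower and 1975 higher, and Bonferroni adjustment 1443 and 970. A mean of at least 16 CPM left 1833 and 1992, and the 2-fold limit 111 and 37. Of all 156 listed partner and marker genes, 72 were lower and 34 higher. Bonferroni adjustment left 22 higher, and the 2-fold limit 10 lower and 0 higher. Of 96 counts for single lists under these alternatives, 61 stayed within 1.5 times the main count, and 21 of the 35 that did not came from the 2-fold limit. Centring on genes of like mean moved the fold changes of the 9 genes by at most 0.10 on the log2 scale. That exceeded the implied standard error for Apoe alone, which went from -0.02 to -0.09. No paired analysis was possible because the table holds no values per library, and for the same reason no library could be left out.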
